A study of Mus musculus with 51 samples.

Results

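The fibrillar collagens of bone were followed through the mRNA and chromatin data of mouse femurs and of MC3T3-E1 cells. The 10 genes were taken by name: Col1a1 and Col1a2, Col3a1, Col5a1, Col5a2 and Col5a3, Col11a1 and Col11a2, Col12a1 and Col24a1. All 10 were found among the 23358 entries of each femur library of the vitamin C (VitC) experiment, and all 10 among the 25938 genes of the Tet experiment. For peaks, a locus was the gene with 30 kb added on each side, in the mm10 genome.

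Col1a1 and Col1a2 encode the α1 and α2 chains of type I collagen, the main organic component of bone matrix. Types III, V and XI form mixed fibrils with the major collagens and influence how thick these become, type XXIV is a fibrillar collagen found in developing bone, and type XII is not fibrillar itself but binds to the surface of fibrils. Procollagen chains become hydroxylated on proline and lysine by enzymes that use VitC as a cofactor. The TET enzymes, which oxidise 5-methylcytosine in DNA to 5-hydroxymethylcytosine (5hmC), belong to the same family of VitC-dependent dioxygenases.

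Femurs came from wild type mice (WT) and from mice homozygous for the Gulotm1Mae allele, which cannot make VitC, all 20 weeks old. The Gulo mutants received 3.3 g/L VitC in the drinking water either for all 20 weeks (VitC+) or for the first 15 weeks only (VitC+/-). In the second experiment, C57BL/6 mice of 11 weeks carried Prrx1-Cre, active in the limb mesenchyme lineage, with wild type Tet alleles (Ctrl) or with loxP-flanked Tet1, Tet2 or both (Tet1 cKO, Tet2 cKO, Tet1/2 cKO). RNA-seq was done on 3 libraries per group after the marrow had been flushed out and the periosteum removed. Peak lists of 5hmC, from immunoprecipitated DNA, stood for pooled replicates of femurs (VitC+/- and VitC+, Tet1/2 cKO and Ctrl) and of MC3T3-E1, a line of mouse calvarial pre-osteoblasts, cultured over 28 days. These cells received 4 mM β-glycerophosphate and either 50 µg/ml VitC (VitC+) or none (VitC-). Lists of the repressive histone marks H3K27me3 and H3K9me3 came from MC3T3-E1 cells with and without VitC. The labels and the description of the study give different culture times for these marks, so no time is stated.

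Gulo was tested against the labels first. Its deposited RPKM, a read count scaled by transcript length and library depth, was listed at 0.522, 0.486 and 0 in the 3 libraries labelled WT. It was 0.180, 0.0352 and 0.0294 in VitC+ and 0.0126, 0.0141 and 0.0186 in VitC+/-. The library labelled WT replicate 3, at 0, thus lacked the higher Gulo value of the other WT libraries. It also lay below every Gulo mutant library, so its label is neither borne out nor contradicted. It is named in this way throughout. All these Gulo values lay below the filter of 1 RPKM used for testing, so this check of the labels is weak. Whole-gene normalized counts of Tet1 were 374 to 435 in Ctrl, 532 to 773 in Tet1 cKO and 415 to 485 in Tet1/2 cKO. Those of Tet2 were 2236 to 2512 in Ctrl, 1834 to 2245 in Tet2 cKO and 1851 to 2970 in Tet1/2 cKO. These totals include reads outside the floxed sequence and therefore check little. The depth computed from the steps between low RPKM values was 7.54 M reads (M for mega) in WT replicate 1 and 31.2 to 47.1 M in the other 8 libraries, and the Tet libraries held 28.6 to 49.8 M reads. The labels number the libraries of a group and do not name the animals, so p-values measure the spread between these libraries.

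Stretches of 150 bases around the summits of 5hmC peaks at 4 of the loci are printed because they carry the comparison of the cells with and without VitC. Capitals mark CpG, the dinucleotide in which 5hmC mainly occurs, and all stretches are given on the plus strand of mm10. The strongest 5hmC peak of the Col1a2 locus in VitC+ cells covered 4049 bp and had its summit in exon 51 of the 52 exons of the gene. This peak was 25.2-fold over local background and overlapped a peak in all 4 femur lists, but none in VitC- cells. The Col24a1 stretch, in intron 12, was 14-fold enriched and was found in the list of VitC+ cells only. The Col5a1 and Col11a2 stretches lay in intron 4 and intron 8, with folds of 15.2 and 10.8. The Col11a2 peak overlapped a peak in all 4 femur lists, and the Col5a1 peak only in Ctrl and Tet1/2 cKO femurs. These 4 peaks were picked from those of VitC+ cells that overlapped none in VitC- cells, so their absence there is no result. The Col1a1 stretch lay downstream of the gene, in a peak of VitC+ cells whose midpoint was 20022 bp from the start. This peak of 2672 bp was 13.6-fold enriched, and all 6 lists of 5hmC held a peak overlapping it. Overlap with the printed 150 bases was not counted.
Col1a2, chr6:4539621-4539770: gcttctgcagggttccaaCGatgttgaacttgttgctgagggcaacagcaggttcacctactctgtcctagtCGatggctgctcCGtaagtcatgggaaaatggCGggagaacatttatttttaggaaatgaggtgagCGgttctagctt
Col24a1, chr3:145348452-145348601: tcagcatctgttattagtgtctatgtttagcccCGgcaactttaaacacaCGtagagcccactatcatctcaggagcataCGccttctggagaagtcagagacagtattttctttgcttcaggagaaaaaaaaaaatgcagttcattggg
Col5a1, chr2:27940272-27940421: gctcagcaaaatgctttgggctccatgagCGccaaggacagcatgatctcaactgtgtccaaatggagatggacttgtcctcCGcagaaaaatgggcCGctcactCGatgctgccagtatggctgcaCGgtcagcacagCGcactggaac
Col11a2, chr17:34047556-34047705: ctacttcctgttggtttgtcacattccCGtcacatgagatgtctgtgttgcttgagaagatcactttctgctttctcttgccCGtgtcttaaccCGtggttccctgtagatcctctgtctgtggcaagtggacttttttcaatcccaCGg
Col1a1, chr11:94957003-94957152: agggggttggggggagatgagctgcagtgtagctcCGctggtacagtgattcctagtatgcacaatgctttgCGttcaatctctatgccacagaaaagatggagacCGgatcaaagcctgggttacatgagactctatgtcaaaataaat
The stretches held 5, 3, 6, 4 and 3 CpG in this order.

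The levels of the 10 collagens in femurs with VitC were dominated by type I. To make libraries comparable, each was scaled by 1 factor (the median ratio to a reference library, between 0.744 and 1.11), which gives the scaled RPKM. Since they are per length, genes can be compared. In VitC+ femurs, Col1a2 (chr6:4505697-4541543) had 3751, 2067 and 4045 scaled RPKM, and Col1a1 (chr11:94936270-94951856) had 2349, 1337 and 2921. Together they made up most of the summed level of the 10 genes, with Col1a2 at 52.3 to 56.2% of the sum and Col1a1 at 35.2 to 37.8%. Next came Col11a2 (chr17:34039437-34066242), Col5a2 (chr1:45374331-45503282) and Col11a1 (chr3:114030540-114220326), with means of 219 ± 82.6, 130 ± 36.4 and 116 ± 38.5 scaled RPKM (SD, n = 3). Col3a1 (chr1:45311538-45349706), Col5a1 (chr2:27886425-28039510), Col12a1 (chr9:79598991-79718678), Col24a1 (chr3:145292472-145552005) and Col5a3 (chr9:20770050-20815034) followed at 45.7, 32.2, 12.6, 9.65 and 6.23. Col1a2 was above Col1a1 in each of the 9 libraries. The ranges of Col11a2, Col5a2 and Col11a1 overlapped with each other, as did those of Col3a1 and Col5a1 and those of Col12a1, Col24a1 and Col5a3, so the order in each of these sets was read within libraries. Col11a2 was above Col5a2 and Col5a2 above Col11a1 in each of the 3 VitC+ libraries, as Col3a1 was above Col5a1 and Col24a1 above Col5a3, while Col12a1 was above Col24a1 in 2 of 3.

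After VitC withdrawal, this order changed. In VitC+/- femurs, Col3a1 came next after type I with a mean of 227 scaled RPKM, followed by Col5a1 at 105, Col5a2 at 99, Col12a1 at 53.4 and Col5a3 at 19.1. Col11a1, Col11a2 and Col24a1 were last at 17.0, 8.91 and 0.219. The ranges of neighbours in this order overlapped, except that the highest Col24a1 library, at 0.371, was far below the lowest of Col11a2, at 6.77. Within each VitC+/- library, Col3a1, Col5a1, Col5a2, Col12a1 and Col5a3 nevertheless stood in this order, while Col5a3 was above Col11a1, and Col11a1 above Col11a2, in 2 of 3. Col3a1 contributed 7.10 to 12.4% of the summed level of the 10 genes in the 3 VitC+/- libraries, against 0.569 to 0.986% in VitC+. Col11a2 contributed 0.282 to 1.81%, against 3.31 to 3.74%.

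**Figure D1:**
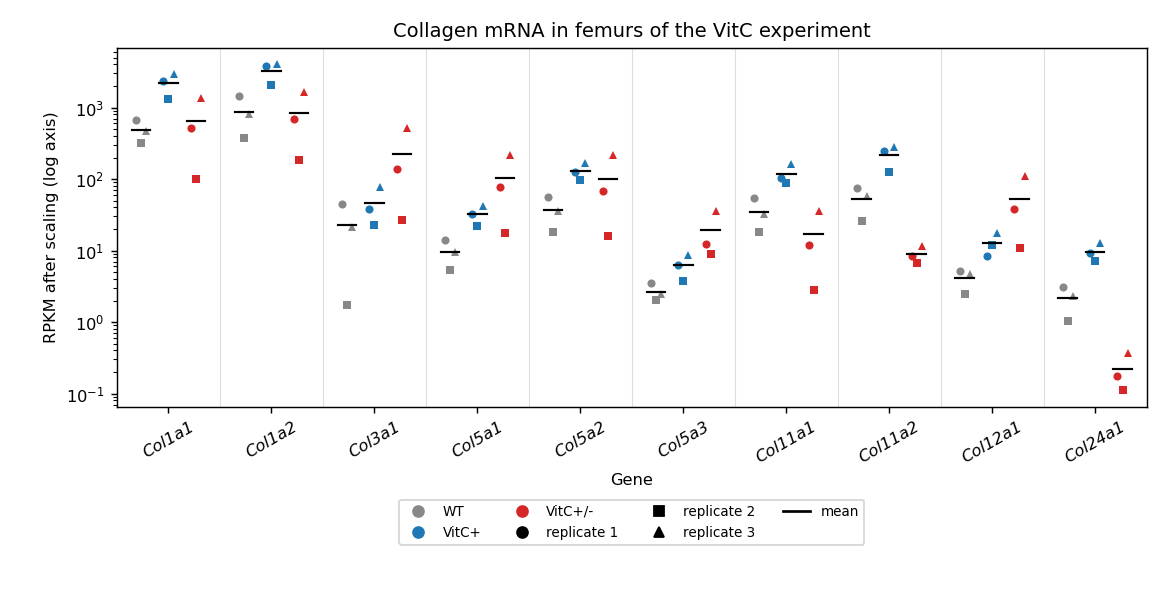
Scaled RPKM of the 10 collagen genes in the femur libraries labelled WT, VitC+ and VitC+/- on a log axis. Each symbol is 1 library, its shape gives the replicate and the black line is the group mean. The VitC+/- libraries of Col24a1 sit between 0.111 and 0.371 and those of VitC+ between 7.12 and 12.7.

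VitC+/- femurs were compared with VitC+ femurs to ask which collagen mRNAs moved when VitC was withdrawn. Col11a1, Col11a2 and Col24a1 fell, and no member rose past the threshold. In limma, with all 12586 entries above a filter on low values and Benjamini-Hochberg adjustment, 3 of 10 members were lower at an adjusted p under 0.05 and 0 higher. Of all entries, 7.95% were lower and 5.51% higher. Without a threshold, 6 members and 49.6% of entries had a log2 fold change below 0, and the median was -1.69 over the members against 0.006 over all entries. All members passed the filter of 1 RPKM in 3 libraries, Col24a1 only through its WT and VitC+ libraries. In bulk tissue, fewer cells of a type and less mRNA per cell cannot be told apart.

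Both type XI genes fell strongly. Col11a2, the α2 chain of type XI collagen, had 249, 125 and 282 scaled RPKM in VitC+ and 8.28, 6.77 and 11.7 in VitC+/-. All 3 VitC+/- libraries were far below all VitC+ libraries, a 22.5-fold difference (log2 fold change -4.49 ± 0.42 SE, limma adjusted p = 0.0007). Col11a1, the α1 chain, went from 102, 87.0 and 160 to 12.1, 2.82 and 36.0, again without overlap and 9.82-fold lower (-3.30 ± 0.74 SE, limma adjusted p = 0.0225). The Col11a1 call was lost when any VitC+ library or VitC+/- replicate 1 was left out, with log2 fold changes of -3.37, -3.48, -3.04 and -3.36 and limma adjusted p of 0.0614 to 0.0782. Type XI collagen is also a component of cartilage, and cartilage markers moved with it. The summed scaled RPKM of 12 chondrocyte markers was 132 to 544 in VitC+ and 16.7 to 23.2 in VitC+/-, with no marker at 0 in all libraries of a group. In the VitC+ libraries Col2a1 alone gave 108 of 132, 130 of 145 and 277 of 544. Of 7 chondrocyte markers tested, 2 were lower past the threshold and 0 higher. The part of cartilage in the fall of Col11a1 and Col11a2 was not tested.

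Col24a1, which encodes the fibrillar type XXIV collagen, had 9.18, 7.12 and 12.7 scaled RPKM in VitC+ and 0.175, 0.111 and 0.371 in VitC+/-. The groups were widely separated, with a 13.9-fold difference on the scale with 0.5 added to each value (log2 fold change -3.80 ± 0.33 SE, limma adjusted p = 0.000571). Its call and that of Col11a2 held without any single library of either group, with log2 fold changes of -3.59 to -3.98 for Col24a1 and -4.27 to -4.85 for Col11a2.

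Type I collagen was lower in most VitC+/- libraries but did not pass the threshold. Col1a1 had 510, 101.3 and 1357 scaled RPKM in VitC+/-, and replicate 3 lay just above the lowest VitC+ library. The log2 fold change was -2.34 ± 0.78 (SE), 5.07-fold, with a limma adjusted p of 0.0756. Col1a2 had 681, 184 and 1637, all below the VitC+ libraries, with -2.42 ± 0.74 (SE), 5.34-fold and a limma adjusted p of 0.0596. Both genes passed the threshold without VitC+/- replicate 3, with log2 fold changes of -3.20 and -3.15 and limma adjusted p of 0.0221 and 0.0256. The spread among the VitC+/- libraries was thus wide: the highest was 13.4 times the lowest for Col1a1 and 8.89 times for Col1a2. The median of this range over the 10 members was 11.3 in VitC+/-, 2.03 in VitC+ and 2.92 in WT, against 1.40, 1.31 and 1.48 over all entries.

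Col3a1, Col5a1, Col5a3 and Col12a1 had higher means in VitC+/- and none passed. Col5a1, the α1 chain of type V collagen, had 77, 17.8 and 219 scaled RPKM in VitC+/- and 32.6, 22.0 and 42.0 in VitC+ (log2 fold change 1.10 ± 0.75 SE, limma adjusted p = 0.349). Col5a3, a minor chain of type V collagen, had 12.4, 9.01 and 35.8 scaled RPKM in VitC+/- and 6.25, 3.80 and 8.64 in VitC+. The groups just did not overlap (log2 fold change 1.36 ± 0.47 SE, limma adjusted p = 0.0822). Col3a1, the chain of type III collagen, had 139, 26.6 and 515 against 38.0, 22.9 and 76.2, with a log2 fold change of 1.61 ± 1.21 (SE) and a limma adjusted p of 0.403. Col12a1 had 38.3, 10.7 and 111 against 8.34, 11.8 and 17.6, with 1.54 ± 0.69 (SE) and 0.161. In both of these genes VitC+/- replicate 2 lay within the VitC+ range, in Col5a1 below it, and the other VitC+/- libraries lay above it. Without this replicate, Col5a1, Col5a3 and Col12a1 were higher past the threshold, with log2 fold changes of 2.05, 1.76 and 2.40, and Col11a1, Col11a2 and Col24a1 were still lower, at -2.39, -4.32 and -3.68. VitC+/- replicate 2 had a summed scaled RPKM of 12 adipocyte markers of 2565, against 388 and 329 in the other VitC+/- libraries and 194 to 424 in VitC+, and their part in its low collagen values was not tested. Col5a2, the α2 chain of type V, had 67.6, 15.8 and 214 against 124, 96.6 and 169 and overlapped (log2 fold change -1.04 ± 0.79 SE, limma adjusted p = 0.403). Over the 10 members, 5 did not overlap between the groups, where 40.6% of all entries did not.

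**Figure D2:**
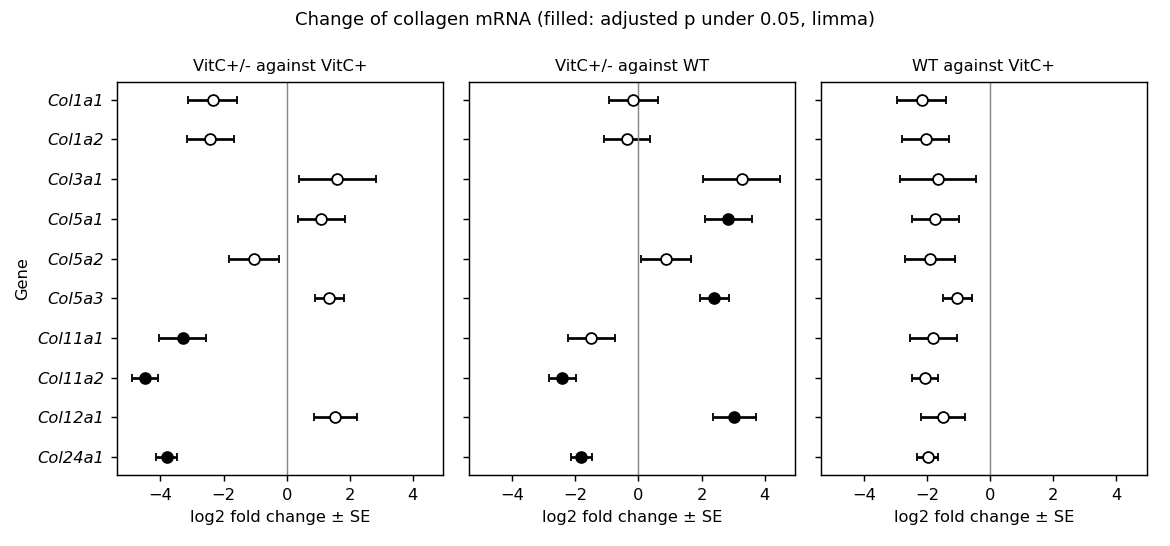
Log2 fold change of the 10 collagen genes in 3 comparisons of femurs, from limma, with bars of 1 SE and filled points where the adjusted p is under 0.05. Col11a1, Col11a2 and Col24a1 are filled at -3.30, -4.49 and -3.80 in VitC+/- against VitC+, and no point is filled in WT against VitC+.

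The proportions among the collagens were set beside their levels by expressing each gene as a percentage of Col1a1 in the same library. In VitC+/-, the proportions of Col1a2, Col3a1, Col5a1, Col5a2, Col11a1 and Col12a1 had a smaller coefficient of variation than their levels, and those of Col5a3, Col11a2 and Col24a1 a larger one. Col5a1 was 15, 17.5 and 16.2% of Col1a1 in VitC+/-, 1.39, 1.64 and 1.44% in VitC+ and 2.10, 1.70 and 2.0% in those labelled WT. The mean proportion was 10.9 times higher in VitC+/- than in VitC+. Col12a1 was 7.5, 10.6 and 8.19% in VitC+/- and 0.355, 0.882 and 0.601% in VitC+, 14.3 times higher. For Col3a1 the values were 27.2, 26.3 and 38.0% against 1.62, 1.71 and 2.61%, 15.4 times higher. Col5a3 was 16.5 times higher in the mean, with replicate 2 at 8.89% and the others at 2.44 and 2.64%, and Col5a2 only 2.44 times. In the other direction, Col24a1 was 0.0344, 0.109 and 0.0273% of Col1a1 in VitC+/- and 0.391, 0.532 and 0.433% in VitC+, 7.92 times lower. Col11a1 was 2.09 times lower in proportion, with 2.37, 2.78 and 2.65% against 4.36, 6.5 and 5.48%. Col11a2 had 1.62, 6.69 and 0.859% against 10.6, 9.37 and 9.65%, 3.23 times lower in the mean, with replicate 2 far above the other VitC+/- libraries. The difference of the mean log2 proportions was -2.23 for Col11a2, -3.26 for Col24a1 and 3.77 for Col5a3. Without VitC+/- replicate 2 it was -3.06, -3.87 and 3.17, and without VitC+/- replicate 3 it was -1.58 for Col11a2.

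In total, 5 of the 9 proportions were higher and 3 were lower without overlap between VitC+/- and VitC+. Of all entries, 49.6% were higher and 0.262% lower in proportion to Col1a1, since Col1a1 itself had lower values in VitC+/-. The 5 higher proportions are thus read against a background of nearly the same share, and the 3 lower ones against a background that is far smaller. Against the libraries labelled WT, the same 5 proportions were higher and the same 3 lower without overlap, with a background of 4.55% higher and 0.628% lower. Both counts use the same VitC+/- libraries. Between WT and VitC+, the proportion was higher without overlap in the libraries labelled WT for 2 of 9 members (Col5a1 and Col5a3), where 90.6% of entries were, and lower for 0, where 0.0238% were. These proportions were chosen after seeing the data and are descriptions without a test.

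**Figure D3:**
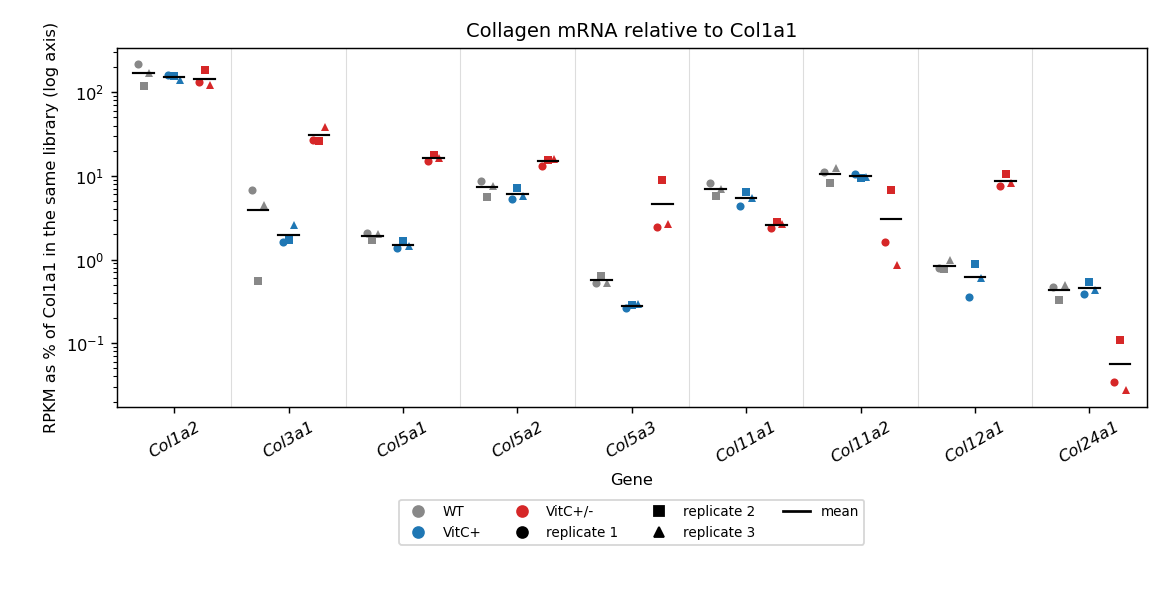
Scaled RPKM of 9 collagen genes as a percentage of Col1a1 in the same library, on a log axis, for WT, VitC+ and VitC+/- femurs. Symbols are libraries and black lines are group means. The VitC+/- libraries of Col5a1 lie between 15 and 17.5% and all other libraries between 1.39 and 2.10%.

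For the 2 chains of type I collagen, no difference in proportion was resolved. The ratio of Col1a1 to Col1a2 was 0.749, 0.550 and 0.829 in VitC+/- and 0.626, 0.647 and 0.722 in VitC+. In the libraries labelled WT it was 0.462, 0.837 and 0.583. The difference of the means between VitC+/- and VitC+ was 0.0442 (two-sided exact permutation test, n = 3, p = 0.6). For VitC+/- against WT and WT against VitC+, the exact permutation p was 0.7 and 0.8 (n = 3). With 3 against 3, the test cannot go below 0.1, and these values do not show that the ratios were equal.

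VitC+/- femurs were also compared with WT femurs, which shares the VitC+/- libraries with the comparison above. Col5a1, Col5a3 and Col12a1 rose and Col11a2 and Col24a1 fell. With 3 higher and 2 lower of 10 members, the background was 15.3% higher and 15.7% lower. Col12a1 had 5.23, 2.45 and 4.63 scaled RPKM in the libraries labelled WT, all below the lowest VitC+/- value of 10.7, and was 8.25-fold higher in VitC+/- (log2 fold change 3.04 ± 0.69 SE, limma adjusted p = 0.0105). Col5a1 was 7.18-fold higher (2.84 ± 0.75 SE, limma adjusted p = 0.0194) and Col5a3 5.31-fold higher (2.41 ± 0.47 SE, limma adjusted p = 0.00552). Col11a2 had 74.5, 26.0 and 58.3 in the libraries labelled WT and was 5.32-fold lower in VitC+/- (-2.41 ± 0.42 SE, limma adjusted p = 0.00338). Col24a1 had 3.09, 1.03 and 2.35 and was 3.52-fold lower (-1.81 ± 0.33 SE, limma adjusted p = 0.00451).

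Without the library labelled WT replicate 3, 4 of these 5 calls were kept, with log2 fold changes of 3.15 for Col12a1, 2.37 for Col5a3, -2.28 for Col11a2 and -1.72 for Col24a1. Col5a1 was 2.88 with a limma adjusted p of 0.0563, and its call was also lost without WT replicate 2 or VitC+/- replicate 1. Col3a1 was 9.65-fold higher in VitC+/- than in WT but did not pass (3.27 ± 1.21 SE, limma adjusted p = 0.067). It was past the threshold without WT replicate 1 or VitC+/- replicate 2, at 4.17 and 4.38. Col11a1 was -1.49 with a limma adjusted p of 0.151, and passed at -2.32 without VitC+/- replicate 3. Type I collagen did not pass against WT. The mean scaled RPKM of Col1a1 was 656 in VitC+/- and 484 in WT and that of Col1a2 834 and 874, while the log2 fold changes, from means of log2 values, were -0.17 for Col1a1 (± 0.78 SE, limma adjusted p = 0.891) and -0.37 for Col1a2 (± 0.74 SE, 0.735). Col5a2 was 0.88 (± 0.79 SE, 0.422) and passed at 1.85 without VitC+/- replicate 2. The groups did not overlap for 5 of 10 members and for 42.8% of all entries.

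WT femurs were compared with VitC+ femurs, a comparison that shares both groups' libraries with those above. Here 0 members and 0 of 12586 entries passed in limma, while 2717 entries and 8 members had an unadjusted p under 0.05. All 10 members had lower means in the libraries labelled WT, with log2 fold changes from -1.05 for Col5a3 to -2.18 for Col1a1, where 47.4% of all entries were lower. Col1a1 had 662, 317 and 471 scaled RPKM in the libraries labelled WT against 1337 or more in VitC+. The groups did not overlap for 9 of 10 members, Col3a1 being the exception, and were lower in this way for 15% of all entries. Col24a1 (-1.98 ± 0.33 SE) and Col11a2 (-2.08 ± 0.42 SE) had the lowest limma adjusted p, 0.0725 and 0.0741, and passed without WT replicate 1, at -2.25 and -2.39. Without the library labelled WT replicate 3, no member passed and the log2 fold changes were -1.01 to -2.21. Marker genes moved with this difference too. All 15 tested osteoblast and osteocyte markers had log2 fold changes below 0 (median -1.71). So did all 7 chondrocyte markers (-2.04), all 9 adipocyte markers (-1.11) and all 19 other collagens tested (-1.43). Of 8 fibroblast and tendon, 11 skeletal muscle and 13 marrow blood cell markers, 6, 3 and 5 were below 0. The osteoblast and osteocyte markers summed to 708 to 2554 scaled RPKM in WT and 3745 to 6480 in VitC+. Sums of 13 marrow blood cell markers were 50939 to 69834 in WT, 28833 to 44998 in VitC+ and 6803 to 22901 in VitC+/-. The part of these cells in the collagen values was not tested.

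Other genes of collagen biosynthesis were read against the 7.95% of all entries lower and 5.51% higher in VitC+/- than in VitC+. Of 15 tested genes for folding and hydroxylation of procollagen, such as prolyl and lysyl hydroxylases, 0 were lower and 0 higher (median -0.29 on the log2 scale). Of 10 genes for cleavage of procollagen and crosslinking of fibrils, 1 was lower and 0 higher: Loxl4, a lysyl oxidase, with 3.86, 5.42 and 9.46 scaled RPKM in VitC+ and 1.32, 0.481 and 1.87 in VitC+/- (log2 fold change -1.97 ± 0.43 SE, limma adjusted p = 0.0207). Of 16 genes for proteins that bind to fibrils, 1 was lower and 1 higher. Dcn, which encodes decorin, had 199, 155 and 285 in VitC+ and 24.2, 36.9 and 35.1 in VitC+/- (-2.69 ± 0.48 SE, limma adjusted p = 0.0101). Thbs2, thrombospondin 2, had 8.30, 3.84 and 5.68 against 35.3, 17.5 and 98.3 (2.69 ± 0.64 SE, limma adjusted p = 0.0274).

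Of 19 other collagen genes, 4 were lower and 2 higher, with a median of 0.12. Col2a1, the collagen of cartilage and a fibrillar collagen like the members, had 108, 130 and 277 scaled RPKM in VitC+ and 16.6, 13.5 and 8.79 in VitC+/- (log2 fold change -3.59 ± 0.41 SE, limma adjusted p = 0.0018). Col22a1 and Col13a1 were lower too, at -2.98 and -2.52 (limma adjusted p = 0.0152 and 0.0094), and Col4a2, a chain of basement membrane collagen, was higher at 1.28 (0.0176). Against the libraries labelled WT, where 15.3% of all entries were higher and 15.7% lower, 10 of these 19 collagens were higher and 1 lower, as were 3 and 0 of the 15 folding genes, 4 and 0 of the 10 cleavage and crosslinking genes and 6 and 0 of the 16 fibril-binding genes. In WT against VitC+, none of these 4 lists held a gene past the threshold in limma.

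Several markers of bone cells fell as well. Of 15 tested osteoblast and osteocyte markers, 8 were lower and 1 higher in VitC+/- than in VitC+, with a median of -1.30. Bglap, the osteocalcin gene, had 3644, 1115 and 1481 scaled RPKM in VitC+ and 11.1, 8.14 and 8.71 in VitC+/- (log2 fold change -7.54 ± 0.71 SE, limma adjusted p = 0.000731). Bglap2 and Phex had log2 fold changes of -6.62 and -2.58 (limma adjusted p = 0.000418 and 0.00184). These genes were named for the lowest adjusted p, and the 1 marker that was higher is not among them. Without a threshold, 13 of the 15 had log2 fold changes below 0, where 49.6% of all entries did. The summed level of the 16 markers found was 2718 to 5637 in VitC+/- and 3745 to 6480 in VitC+. Such a sum follows the markers with the highest RPKM. Bglap made up 3644 of 6480 in VitC+ replicate 1 and 11.1 of 5343 in VitC+/- replicate 1. The rest of the sum was thus higher in this VitC+/- library than in this VitC+ library. Among 7 tested chondrocyte markers, 2 were lower, Col2a1 and Col9a2 (-2.83, limma adjusted p = 0.0474), and 0 higher. Of 8 fibroblast and tendon markers, 3 were lower (Dpp4, Pi16 and Cd34, at -1.38, -1.52 and -0.63) and 0 higher. Of 13 marrow blood cell markers, 4 were lower (Cd79b, Cd79a, Vpreb1 and Ptprc, at -1.98, -2.25, -3.77 and -0.82), and of 9 adipocyte markers 1 was higher (Plin4, at 2.83). None of 11 skeletal muscle markers passed, and their sum ranged from 9.73 to 1704 across the 9 libraries.

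Across the 9 libraries, the entries outside the members whose log2 levels were most like Col1a1 were Aga, Rcn3, Pja1, Fcrls and Sparc, with Pearson r of 0.97, 0.969, 0.968, 0.968 and 0.966 among 12576 compared. Sparc encodes osteonectin, a collagen-binding protein of bone matrix, and Rcn3 a calcium-binding protein of the endoplasmic reticulum. Among the members, Col1a2 (0.983), Col11a1 (0.933) and Col5a2 (0.912) were most like Col1a1, and Col5a3 (0.214), Col12a1 (0.312) and Col3a1 (0.405) least. Across the 12 Tet libraries, Sparc, Ifitm5, Smpd3, Maged2 and Bglap came first, with 0.983, 0.982, 0.979, 0.979 and 0.979. Col1a2 was at 0.994, Col11a2 at 0.975, Col5a3 at 0.544 and Col3a1 at 0.546. The points share libraries, depth and tissue composition, and no p is given. By rank correlation, Rcn3 and Sparc had 0 and 2 entries above them in the VitC femurs and the others 55 or more, and in the Tet femurs Sparc had 14 above it.

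In femurs of Tet mutants, no collagen gene changed past the threshold. The values are counts divided by a size factor per library and are not per length, so levels of different genes are not compared. In Tet1/2 cKO, all 10 members had lower means than in Ctrl, where 50.8% of all 16780 tested genes were lower. The log2 fold changes were from -0.61 for Col5a3 to -1.35 for Col11a2, with a median of -1.05 over the members and -0.007 over all genes. Limma called 0 genes, with 847 at an unadjusted p under 0.05. With edgeR, 0 genes were called and 780 had an unadjusted p under 0.05, and DESeq2 called 12 genes, none of them a member.

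Col1a1 had normalized counts of 387599, 415356 and 516478 in Ctrl and 112045, 247495 and 198946 in Tet1/2 cKO. All 3 Tet1/2 cKO libraries were below all Ctrl libraries (log2 fold change -1.30 ± 0.85 SE, limma adjusted p = 0.723). Col11a2 had 19759, 33981 and 35272 against 8506, 13957 and 12060 (-1.35 ± 0.65 SE, 0.723), again without overlap. Col1a2 had 538474, 495103 and 679519 against 171554, 383556 and 264504 (-1.13 ± 0.92 SE, limma adjusted p = 0.733). Col5a1 (7303, 12249 and 11777 against 3193, 5802 and 6373) and Col24a1 (2688, 3166 and 3701 against 1385, 2491 and 1798) did not overlap either. These are 5 of 10 members, and 10% of all genes were lower in this way.

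In proportion to Col1a1 of the same library, 2 of 9 members were higher in Tet1/2 cKO than in Ctrl without overlap and 0 lower, where 69.7% of all genes were higher and 0.381% lower. Col24a1 was 1.24, 1.01 and 0.904% of Col1a1 in Tet1/2 cKO and 0.693, 0.762 and 0.717% in Ctrl, and Col11a1 16.2, 16.5 and 11.7% against 9.17, 11.4 and 10.4%. These are proportions of counts and can be read only between groups for 1 gene.

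In the single mutants no difference was resolved, and the libraries were widely spread. In Tet1 cKO, Col1a1 had 511293, 479934 and 1674541, with 9 of 10 members above Ctrl by log2 fold change (48.8% of all genes), 0 past the threshold in limma, where 0.0119% of all genes passed, and only Col24a1 higher without overlap (4.28% of all genes). Col24a1 had 4939, 4136 and 9895 (log2 fold change 0.89 ± 0.74 SE, limma adjusted p = 1). In Tet2 cKO, Col1a1 had 520460, 114889 and 874182, with 8 of 10 members below Ctrl by log2 fold change (51.7% of all genes), 0 past the threshold (0.0119%) and 0 without overlap (5.97%). By the means of the normalized counts, 8 of 10 were instead above Ctrl, Col1a1 at 503177 against 439811, and with edgeR and DESeq2 the log2 fold change of Col1a1 was 0.17 and 0.19. The members' median ratio of the highest to the lowest library was 6.02 in Tet2 cKO, 3.15 in Tet1 cKO, 2.22 in Tet1/2 cKO and 1.56 in Ctrl, against 1.84, 1.55, 1.46 and 1.47 over all genes. Without Tet2 cKO replicate 2, the library with the lowest Col1a1, all members except Col3a1 and Col12a1 turned from below to above Ctrl, Col1a1 to 0.63, and none passed. These 3 comparisons share the Ctrl libraries.

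Muscle and cartilage markers differed widely among the Tet libraries. The summed normalized count of 12 skeletal muscle markers was 147162 to 627975 in Ctrl and 4168 to 544268 in Tet1/2 cKO, and that of 14 chondrocyte markers 7161 to 31056 and 4432 to 9497, with 1 of these at 0 in all 3 Tet1/2 cKO libraries. Osteoblast and osteocyte markers summed to 160311 to 247075 in Ctrl and 65528 to 124860 in Tet1/2 cKO, and 13 of 16 had log2 fold changes below 0, with a median of -1.01. Marrow blood cell markers summed to 779638 to 1150950 and 1089170 to 2377060. The part of these cells in the collagen values was not tested. No gene of the lists for collagen biosynthesis passed in any Tet comparison in limma, and their medians in Tet1/2 cKO were -0.78 for folding and hydroxylation, -0.96 for cleavage and crosslinking, -1.02 for fibril-binding proteins and -1.14 for other collagens.

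Whether loss of Tet1 acted differently with and without Tet2 was tested as an interaction, the difference of the 2 Tet1 effects. It was below 0 for 9 of 10 members, where 50.7% of all genes were below 0, with 0 members past the threshold (0.0119% of genes). Col3a1 was lowest at -3.20 ± 1.23 (SE, limma adjusted p = 0.46).

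**Figure D4:**
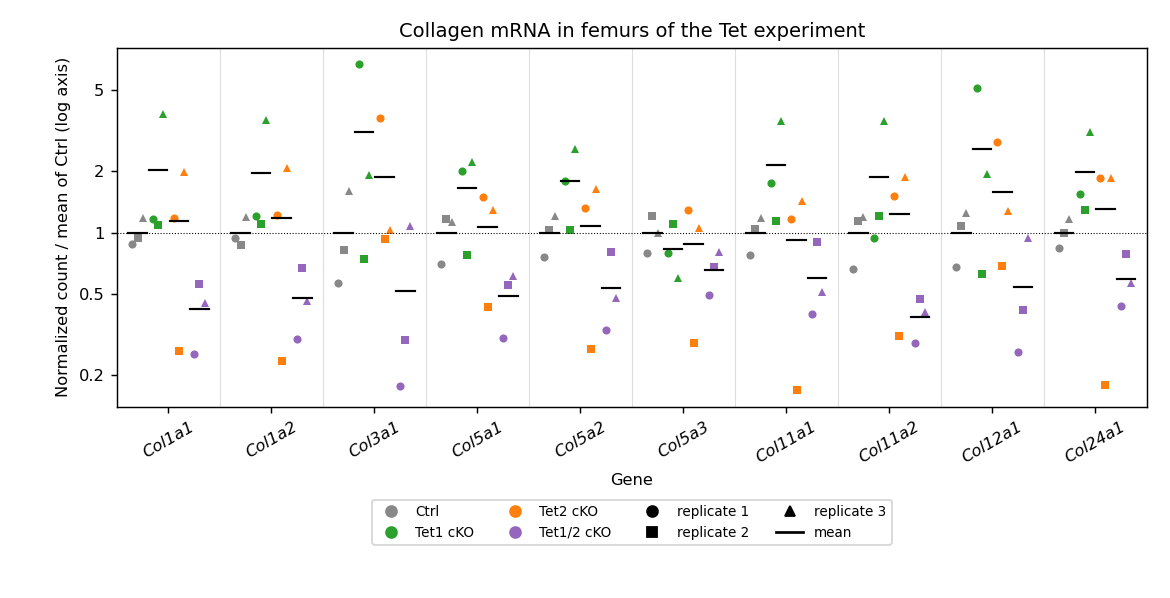
Normalized counts of the 10 collagen genes in the Tet femurs, divided by the mean of Ctrl for each gene, on a log axis. Symbols are libraries and black lines are group means. The Tet1/2 cKO libraries of Col1a1, Col1a2, Col5a1, Col11a2 and Col24a1 lie below all Ctrl libraries, and the Tet1 cKO and Tet2 cKO libraries are widely spread.

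Peaks of 5hmC were then counted at the collagen loci. Replicates were pooled before peaks were called, so each group gives 1 list and differences have no test. The measure is the number of bases covered by peaks whose midpoint lies in the locus, with 1000 bp added to each value before the ratio, and a fold of 1.5 was used as a limit. The gap between Col3a1 and Col5a2 is 24624 bp, so their loci overlap and share peaks. Sums of peaks over the members, and shares computed from them, count these shared peaks once for each gene.

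In femurs, VitC+/- lists covered fewer bases than VitC+ lists at all 10 loci, and the share of all loci below 0 was not computed. The direction depended on the measure. By number of peaks 7 of 10 log2 ratios were below 0, and by bases within 30 kb of the start 8 of 10. Col5a1 was covered over 12242 bp in VitC+ and 6118 bp in VitC+/- (log2 ratio -0.90), Col11a2 over 3692 and 1715 bp (-0.79) and Col1a1 over 4031 and 2094 bp (-0.70). These 3 of 10 loci were past 1.5-fold, where 7.54% of all 22103 loci with a peak were lower and 11.2% higher. Col24a1 had 183 peaks over 143043 bp in VitC+ and 173 over 103518 bp in VitC+/- (-0.46), and Col5a3 only 3 and 2 peaks. The median log2 ratio was -0.28 over the members and -0.11 over all loci. Summed over the members, the VitC+/- list had 529 peaks, and 92.2% of them met at least 1 base of a peak in the VitC+ list. The reverse share was 82.2% of 556. For Col1a1 and Col5a1 this reverse share was 50 and 45.5%, and for Col5a2 92.7%.

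Tet1/2 cKO femurs had fewer covered bases than Ctrl at all 10 loci as well, as did most loci of all genes. The limit was passed by 8 of 10 members, and by 85.9% of 19975 loci, while 0.125% of loci were higher. Log2 ratios went from -0.52 for Col1a1 (19451 bp in Tet1/2 cKO, 28235 bp in Ctrl) to -1.98 for Col5a3 (2386 and 12350 bp). The median was -1.0 over the members and -1.12 over all loci. At the members, 97.5% of 322 Tet1/2 cKO peaks lay on a Ctrl peak, and 57.6% of 458 Ctrl peaks on one of Tet1/2 cKO. The whole Ctrl list covers 273.4 Mb of the genome and the Tet1/2 cKO list 122.9 Mb. By number of peaks 9 of 10 log2 ratios were below 0, with Col11a2 at 0.06. By bases in the gene without flanks 9 of 10 were, with Col1a1 at 0.53 (1289 bp in Tet1/2 cKO, 587 bp in Ctrl). The strongest peak had a higher fold in Tet1/2 cKO at Col1a2, Col3a1, Col11a2 and Col12a1, and a lower one at the other loci.

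In MC3T3-E1 cells, fewer bases were under 5hmC peaks without VitC at every collagen locus. VitC- lists were past the limit at 10 of 10 loci, where 48.8% of 22184 loci were lower and 28.3% higher. Col3a1 had 35 peaks over 33016 bp with VitC and 12 over 6669 bp without (log2 ratio -2.15). Col5a1 had 79 over 84287 bp and 32 over 20884 bp (-1.96). Col1a2 had 27 over 28741 bp and 17 over 9568 bp (-1.49). Its strongest peak with VitC, with the summit in exon 51, overlapped no peak without VitC. Col1a1 had the smallest difference, with 26 over 26534 bp and 20 over 12567 bp (-1.02). The median was -1.54 over the members and -0.54 over all loci. Of 295 peaks without VitC, 77.3% were shared with the other list, and of 575 peaks with VitC, 37.4%. At Col24a1, 128 of 149 peaks with VitC and 69 of 91 without lay in the gene body. The fold of the strongest peak did not follow the covered bases at every locus. It was higher without VitC at Col1a1 (19.5 against 13.6 with VitC) and Col24a1 (30.1 against 20.0). Col3a1 had 17.9 in both lists, and at the remaining loci the fold was higher with VitC. Femur and cell lists with VitC shared 74.1% of 556 femur peaks and 63% of 575 cell peaks.

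The Col1a1 gene itself held 0 peaks of 5hmC in both VitC femur lists and 1 in each of the other 4 lists, while the whole locus held 5 to 26. By percentage of the locus covered, Col24a1 was above 95.9% or more of all loci in all 6 lists, from 20.4% covered in VitC- cells to 52.4% in Ctrl femurs. Col5a3 was covered over 0.588 and 0.861% in VitC+/- and VitC+ femurs, above 3.7 and 6.8% of loci. The lists of the VitC and the Tet femurs were made separately and are set side by side only.

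Only Col24a1 had a 5hmC peak with its midpoint within 1 kb of the start in all 4 femur lists, with folds of 7.91 in VitC+/-, 9.95 in VitC+, 6.25 in Ctrl and 7.89 in Tet1/2 cKO. In MC3T3-E1 cells such a peak of 4.47-fold was listed without VitC, and with VitC a wider peak of 18.4-fold had its midpoint 1106 bp upstream of the Col24a1 start and extended over it. Col5a3 had one in Ctrl femurs and VitC+ cells, Col11a2 in VitC+ cells, and Col1a2 and Col12a1 in VitC- cells. Col1a1, Col3a1, Col5a1, Col5a2 and Col11a1 had none in any list. The 250 bases before the RefSeq start of Col24a1, Col11a2 and Col3a1, from RefSeq on GRCm38.p6 and the plus strand, are printed because these promoters differ in CpG, again in capitals.
Col24a1, chr3:145292222-145292471: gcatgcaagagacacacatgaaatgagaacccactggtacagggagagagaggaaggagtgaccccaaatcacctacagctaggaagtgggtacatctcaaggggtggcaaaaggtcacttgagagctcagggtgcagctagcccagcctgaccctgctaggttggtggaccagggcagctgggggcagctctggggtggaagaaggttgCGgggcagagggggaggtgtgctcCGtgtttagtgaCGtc
Col11a2, chr17:34038888-34039137: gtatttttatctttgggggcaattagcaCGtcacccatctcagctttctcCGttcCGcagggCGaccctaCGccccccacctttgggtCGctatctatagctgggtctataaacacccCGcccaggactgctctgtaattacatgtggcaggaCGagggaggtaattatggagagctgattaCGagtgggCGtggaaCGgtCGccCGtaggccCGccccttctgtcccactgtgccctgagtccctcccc
Col3a1, chr1:45311288-45311537: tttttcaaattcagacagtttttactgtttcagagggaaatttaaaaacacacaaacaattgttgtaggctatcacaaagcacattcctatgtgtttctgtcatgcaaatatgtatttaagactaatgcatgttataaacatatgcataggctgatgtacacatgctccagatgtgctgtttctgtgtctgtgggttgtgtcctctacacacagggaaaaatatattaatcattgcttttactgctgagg
They held 3, 14 and 0 CpG, and the median of 32851 RefSeq promoters was 6. Of the members, 7 had a promoter in this table, and Col1a1, Col5a2 and Col12a1 had no entry. The others had 11 (Col1a2), 28 (Col5a1), 17 (Col5a3) and 7 CpG (Col11a1).

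Motifs were searched on both strands in these 250 bases. GGGCGG, the GC box, was found in 5 of 7 members and in 32.7% of all promoters. CCAAT was found in 3 of 7 (Col1a2, Col5a3 and Col11a1) and in 33.8% of all, and TATAAA in 2 of 7 (Col3a1 and Col11a2) and in 12.4%. CACGTG and ACCACA, the core bound by Runx factors, were in none of the 7 and in 6.02 and 14% of all. A match describes letters and not a bound site.

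**Figure D5:**
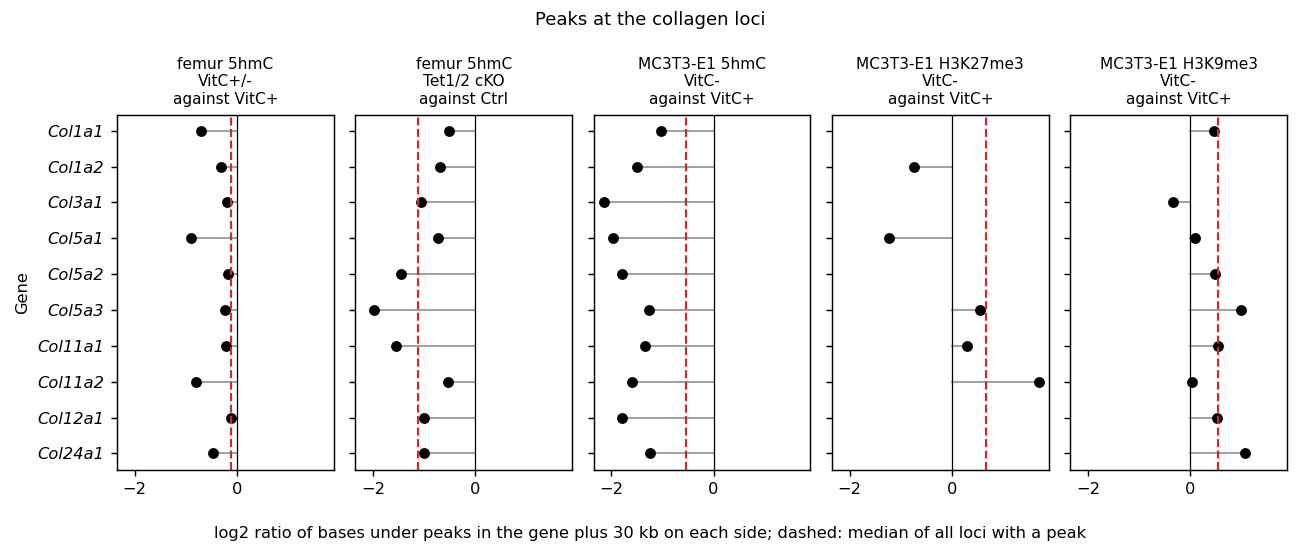
Log2 ratio of bases under peaks at each collagen locus in 5 comparisons of pooled peak lists, with 1000 bp added to each value. Points are loci, the dashed line is the median of all loci with a peak, and a locus without a peak in both lists has no point. In MC3T3-E1 cells all 10 loci lie between -1.02 and -2.15 for 5hmC, with the median of all loci at -0.54.

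Peaks of 2 repressive histone marks were also listed in MC3T3-E1 cells. H3K27me3, laid down by Polycomb complexes, had peaks at 5 of 10 loci, where 15613 of all 22229 loci had one, and none with its midpoint inside a collagen gene. Without VitC, Col11a2 had 7 peaks over 17589 bp, against 6 over 4719 bp with VitC (log2 ratio 1.70), and Col5a1 1 peak over 7018 bp against 4 over 17641 bp (-1.22). At Col1a2, a downstream domain of 25085 bp stood against 42560 bp (-0.74). Thus 1 locus was higher and 2 lower past 1.5-fold, where 54.3% of 15613 loci with a peak were higher and 4.31% lower without VitC. When peaks with any overlap were counted in place of those with their midpoint in the locus, Col5a1 turned from -1.22 to 3.06 (154720 bp in VitC- against 17641 bp), and 3 loci were higher and 1 lower. The direction at Col5a1 thus depended on whether 1 large VitC- domain, which ran far beyond the locus, was counted. Col5a3 was at 0.56 and Col11a1 at 0.30, the latter from 1 peak of 235 bp. Col1a1, Col3a1, Col5a2, Col12a1 and Col24a1 had no H3K27me3 peak.

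H3K9me3, a mark of constitutive heterochromatin, had peaks at 9 loci, all but Col1a2, where 14598 of all 22229 loci had one. Col24a1 had 6 peaks over 14241 bp without VitC and 3 over 6263 bp with VitC (log2 ratio 1.07), and Col5a3 3 over 3269 bp and 3 over 1140 bp (1.00). These were 2 of 10 loci higher and 0 lower, where 47.8% of 14598 loci were higher and 7.32% lower. The other 7 lay between -0.34 (Col3a1) and 0.55 (Col11a1). At Col1a1 the only peak covered 372 bp, 25638 bp from the start, in VitC- cells. No H3K9me3 or H3K27me3 peak had its midpoint within 1 kb of the start of a collagen gene. The strongest of these peaks at the members was 4.13-fold over background, against 30.8-fold for 5hmC, and the lists go down to a -log10 q of 1.01, so weak peaks are included.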

How the data were processed

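RNA-seq of femurs gave 9 libraries in the VitC experiment and 12 in the Tet experiment, 3 per group, and pooled replicates gave 10 peak lists. The authors trimmed reads with Trim Galore 0.4.3.1, mapped them to mm10 with STAR 2.6.0b-1 and counted them with featureCounts 1.6.3. They deposited RPKM values per library for the VitC femurs and normalized counts, a signal made by dividing counts by DESeq2 size factors, for the Tet femurs. For peaks, the authors mapped with BWA 0.7.15.1 and ran MACS2 on pooled replicates, and the deposited lists give the fold enrichment over local background (a ratio), the -log10 q and, in some, the pileup signal at the summit.

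From these, RPKM of at least 1 in 3 libraries and normalized counts of at least 10 in 3 libraries were required. Values were tested with limma 3.58.1 on log2(value + 0.5) and log2(value + 1), so fold changes of low genes are understated. Each experiment was 1 fit with all its groups, with Benjamini-Hochberg adjustment over all tested genes and a threshold of 0.05. Counts recovered from the Tet table were whole within 0.01 read for 100% of values and were tested with edgeR 4.0.16 and DESeq2 1.42.0 as alternatives. Low RPKM values were whole multiples of 1 read for 71.2 to 76% of values. Of the 23358 entries, 69 share 26 names. Peaks were assigned by midpoint to the gene positions deposited with the RPKM values, with 30 kb flanks. Only the 22229 loci on numbered chromosomes whose names are not shared were used. GENCODE vM21 gave the strand, for 19934 of them. The scripts were tested on simulated data.

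The members and gene lists were chosen with earlier results of these data known. Named genes were the 10 members, up to 4 called genes of each list with the lowest p, and the 5 genes most like Col1a1. Alternatives were other scalings, pseudocounts, filters, tools and peak measures, the replicate number as a block, and each library left out in turn.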

Additional observations from a re-analysis of the deposited data

How the results depend on the processing

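Replicates are 3 per group, depth differs between libraries, and peak lists are pooled, so small differences were not detectable. Of the values that are single genes or loci, 1368 stayed in direction and on their side of the threshold or moved by less than the limit, 44 reversed, 33 moved, 20 passed the threshold anew and 7 no longer passed it. Of the counts and other main values, 418 stayed, 79 moved and 3 reversed. The labels do not say whether equal replicate numbers pair the samples, and the main fits assumed no pairing. Same-numbered libraries correlated at -0.19 to 0.46 in the VitC femurs and -0.57 to 0.53 in the Tet femurs. Differently numbered ones correlated at -0.37 to 0.41 and -0.62 to 0.55, so these ranges do not settle whether the numbers pair samples. Where a value changed under an alternative, the cause was not tested.

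With the replicate block, VitC+/- against VitC+ had 5 members lower and 1 higher in place of 3 and 0, WT against VitC+ had 4 members, 602 genes lower and 168 higher in place of 0, and Tet1 cKO and Tet2 cKO against Ctrl had 0 lower and 0 higher genes in place of 1 and 1. Without scaling, 403 genes were lower in VitC+/- than in VitC+ in place of 1001, and 1151 than in WT in place of 1980. In WT against VitC+, 5 genes were lower with a pseudocount of 0.1 and 17 with upper quartile scaling in place of 0. DESeq2 called 20 lower and 5 higher genes in Tet1 cKO, 8 and 4 in Tet2 cKO, 11 and 1 in Tet1/2 cKO, and 48 and 55 in the interaction, in place of 1 and 1, 1 and 1, 0 and 0, and 1 and 1. Fitting only Tet2 cKO and Ctrl gave 0 and 0.

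Leaving out 1 library gave 327 to 802 lower and 150 to 548 higher genes in VitC+/- against VitC+ (693 higher with all), with 2 to 5 members lower and 0 to 3 higher. Against WT it gave 1167 to 1994 lower and 1119 to 2050 higher genes (1925 with all), with 2 to 3 members lower and 2 to 5 higher. In WT against VitC+ it gave 0 to 590 lower and 0 to 68 higher genes, and 0 to 2 members lower. Tet1 cKO had 0 to 3 lower and 0 to 1 higher genes, Tet2 cKO 0 to 3 and 0 to 1, and the interaction 1 to 2 and 1 to 4. The difference in the ratio of Col1a1 to Col1a2 ranged from -0.016 to 0.124 for VitC+/- against VitC+, from -0.001 to 0.187 against WT and from -0.143 to 0.045 for WT against VitC+.

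Some log2 fold changes that had not passed the threshold changed sign. With 1 library left out, the lowest and highest log2 fold change in VitC+/- against WT were -1.02 and 0.85 for Col1a1, -1.10 and 0.48 for Col1a2 and -0.01 and 1.85 for Col5a2. In Tet2 cKO against Ctrl they were -0.84 and 0.63 for Col1a1, -0.89 and 0.69 for Col1a2, -0.38 and 0.51 for Col5a1, -0.72 and 0.58 for Col5a2, -0.84 and 0.24 for Col5a3, -1.15 and 0.38 for Col11a1, -0.49 and 0.80 for Col11a2, -0.05 and 0.96 for Col12a1 and -0.78 and 0.91 for Col24a1. The interaction of Col5a3 ranged from -0.56 to 0.52 in this way, and was -0.10 with edgeR and -0.14 with DESeq2. In Tet2 cKO against Ctrl, Col1a1, Col1a2, Col5a1, Col5a2, Col11a2 and Col24a1 were 0.17, 0.22, 0.07, 0.07, 0.27 and 0.35 with edgeR and 0.19, 0.24, 0.10, 0.10, 0.30 and 0.38 with DESeq2. The log2 difference in proportion to Col1a1, an alternative chosen after seeing the data, ranged from -0.25 to 0.05 for Col1a2 in VitC+/- against VitC+. In WT against VitC+ it ranged from -0.07 to 0.36 for Col1a2, -0.31 to 1.5 for Col3a1, -0.04 to 0.26 for Col11a2 and -0.21 to 0.11 for Col24a1.

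For peaks, a fold of 2 left 0 of the 3 lower members in VitC+/- femurs, and peak numbers left 4 of 8 in Tet1/2 cKO femurs. For H3K27me3, 2 members were lower and 1 higher; both counts were 0 with a -log10 q of at least 5, with 30 kb around the start and with genes without flanks. With any overlap, 1 was lower and 3 were higher and Col5a1 turned to 3.06, a fold of 2 left 1 lower, and fold times length gave 3 higher. For H3K9me3, 0 were lower and 2 higher; 1 was lower around the start and by fold times length, and 0 were higher with a -log10 q of at least 5, 5 by peak number and 1 with a fold of 2.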
